A study of Mus musculus with 4 samples.

Results

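Of 14973 autosomal CpG clusters, 387 were under 20% methylated in iPSCs and at least 20 percentage points higher in primary dopaminergic neurons of the mouse embryo, and 382 of these had a gain of that size in the neurons made from iPSCs as well. A CpG cluster is a run of at least 10 cytosine positions, each covered by at least 5 calls in all 4 libraries, in which neighbours are less than 100 bp apart. Its level is the share of methylated calls among all calls of its positions. The 387 clusters were selected on their levels in the libraries of iPSCs and of primary (mdDA) neurons, so that those levels are described here and not tested. Levels of the iPSC-DA neurons and of the NESTIN-GFP precursors had no part in the choice.

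Reduced representation bisulfite sequencing (RRBS), in which MspI fragments rich in CpGs are converted with bisulfite and sequenced, gave 1 library for each of 4 cell populations of the mouse. The iPSCs (Pitx3 Gfp/+) had been made from embryonic fibroblasts with retroviral reprogramming factors. The iPSC-DA neurons (Pitx3 Gfp/+) were differentiated on stromal feeder cells for about 4 weeks and sorted for GFP driven by Pitx3, a transcription factor gene of midbrain dopaminergic neurons. The mdDA neurons (Pitx3 Gfp/+) are the primary mesodiencephalic dopaminergic neurons of E14.5 embryos, sorted in the same way. The NESTIN-GFP precursors (Nestin Gfp/+), taken at day 14, came from a reporter line other than that of the iPSC library, and the sample label calls them neurons. The Pitx3 Gfp/+ libraries share a GFP allele at Pitx3, and whether the sequenced iPSCs were the clone that gave the iPSC-DA neurons is not given in the sources used here. All values therefore compare single libraries, with no spread between replicates.

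Most CpG islands, the CpG-rich stretches at gene starts, stay free of methylation in every tissue. A minority gain methylation as pluripotent cells differentiate, through the de novo methyltransferases DNMT3A and DNMT3B. Promoters of germline genes, which are shut in somatic cells, are a known class of these. In imprinted regions the copy of 1 parent carries methylation that was set in the germ cells. The gain described here is the difference between iPSCs and neurons, and the embryo before neurons form was not measured.

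No genome of the build of the deposited files, whose chromosome lengths fit NCBIM37 (mm9), was used. Genes were therefore given to clusters only where the spacing of the covered positions matched the CpGs of a RefSeq promoter sequence (GRCm38.p6, 250 bases before to 50 after the start) on the same chromosome. This placed 16 of the 387 clusters (4.13%, 95% CI 2.56% to 6.61%) and 3799 of all 14973 (25.4%). The 6 sequences below are the 250 bases before the start of genes at such clusters, 5′ to 3′ on the gene's strand, with every CpG in capitals. Ddx4, Hormad1, Mael and Boll are germline genes, and Hymai and Zrsr1 are imprinted transcripts. They are shown because the clusters at the germline genes and those at the imprinted transcripts had different levels in the precursors. Those levels are of whole clusters and not of the printed bases alone. At Hymai the cluster was at 22.6% in the precursors, but its covered positions inside the printed bases were at 50% to 84.6%. In GRCm38.p6 they lie at chr13:112652311-112652560 (minus strand), chr3:95559427-95559676 (plus strand), chr1:166238745-166238994 (minus strand), chr1:55362729-55362978 (minus strand), chr10:13090595-13090844 (plus strand) and chr11:22971755-22972004 (plus strand).
Ddx4: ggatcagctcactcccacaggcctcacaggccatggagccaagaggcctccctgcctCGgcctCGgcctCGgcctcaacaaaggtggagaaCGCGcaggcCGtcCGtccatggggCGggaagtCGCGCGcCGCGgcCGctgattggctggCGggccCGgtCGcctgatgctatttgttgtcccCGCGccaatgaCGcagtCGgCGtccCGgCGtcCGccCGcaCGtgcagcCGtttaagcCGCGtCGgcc
Hormad1: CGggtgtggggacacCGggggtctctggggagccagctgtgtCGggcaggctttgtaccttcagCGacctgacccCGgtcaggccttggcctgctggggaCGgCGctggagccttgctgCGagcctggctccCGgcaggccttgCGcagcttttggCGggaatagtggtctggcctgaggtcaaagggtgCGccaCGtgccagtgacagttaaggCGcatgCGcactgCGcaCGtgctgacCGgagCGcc
Mael: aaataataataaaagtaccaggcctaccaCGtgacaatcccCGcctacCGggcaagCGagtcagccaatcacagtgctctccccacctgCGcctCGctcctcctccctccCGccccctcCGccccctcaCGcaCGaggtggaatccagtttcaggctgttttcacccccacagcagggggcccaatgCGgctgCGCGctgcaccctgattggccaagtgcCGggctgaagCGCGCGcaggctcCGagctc
Boll: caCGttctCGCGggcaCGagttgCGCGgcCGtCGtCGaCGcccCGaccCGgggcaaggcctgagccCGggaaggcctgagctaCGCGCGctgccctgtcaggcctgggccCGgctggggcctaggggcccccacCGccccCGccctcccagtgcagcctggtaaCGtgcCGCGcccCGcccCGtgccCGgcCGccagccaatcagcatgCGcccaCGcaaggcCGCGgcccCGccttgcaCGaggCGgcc
Hymai: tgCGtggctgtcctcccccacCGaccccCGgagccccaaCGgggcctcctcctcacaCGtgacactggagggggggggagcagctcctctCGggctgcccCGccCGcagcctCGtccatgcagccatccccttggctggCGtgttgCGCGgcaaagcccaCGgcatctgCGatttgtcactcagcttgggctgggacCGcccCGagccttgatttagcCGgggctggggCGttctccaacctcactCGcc
Zrsr1: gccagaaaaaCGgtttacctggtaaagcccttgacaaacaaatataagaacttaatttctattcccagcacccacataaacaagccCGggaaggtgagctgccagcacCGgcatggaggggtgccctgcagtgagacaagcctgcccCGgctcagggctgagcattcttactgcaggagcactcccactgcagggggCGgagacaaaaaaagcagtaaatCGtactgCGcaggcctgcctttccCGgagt

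The 250 bases before Ddx4 held 31 CpGs and those before Zrsr1 8. Of the 41 covered positions of the Ddx4 cluster 40 lay in the promoter sequence of 300 bases, as did 20 of 22 at Hormad1, 8 of 16 at Mael, 33 of 40 at Boll, 7 of 31 at Hymai and 7 of 12 at Zrsr1. The word CACGTG, the E-box bound by the MYC and MAX family, stood in 6 of the 16 promoters placed at the selected clusters (37.5%), against 10.8% of 3984 genes placed at any cluster and 7.11% of the 25748 genes with an autosomal promoter sequence. The genes with it were Mael, Hormad1, Rbmxl2, Hymai, Amn and Ddx4. The word TTCCCGC or its reverse complement GCGGGAA, of the kind bound by E2F factors, stood in 4 of the 16 (25%), against 10.8% and 4.70%. CACGTG reads the same on both strands and can share 1 base with the other word, and a match marks letters in this window and not a bound site.

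The gain seen in mdDA neurons was present in nearly all of the selected clusters in both differentiated populations made from iPSCs. In iPSC-DA neurons 382 of the 387 clusters (98.7%, 95% CI 97.0% to 99.4%) were at least 20 points above iPSCs. Over all clusters this share was 33.2%, and over the 13759 other clusters under 20% in iPSCs it was 29.4%. In NESTIN-GFP precursors 369 of the 387 (95.3%, 95% CI 92.8% to 97.0%) were at least 20 points above iPSCs, against 18.2% of all clusters and 12.6% of the other low clusters. In both populations 367 clusters had the gain, 15 had it in iPSC-DA neurons alone, 2 in the precursors alone and 3 in neither. Both gains are measured from the iPSC level, which the choice used, so these shares are a description. The Wilson intervals cover counting error over clusters only, and PCR reads without molecular identifiers are not independent molecules. For the mdDA gain that the choice used, the share over all clusters was 5.97%.

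The median level of the selected clusters was 11.4% in iPSCs (quartiles 7.22% and 15.1%), 85.4% in the precursors (69.8% and 92.9%), 84.2% in iPSC-DA neurons (69.8% and 91.4%) and 75.1% in their mdDA counterparts (49.8% and 92.2%). The precursors and iPSC-DA neurons thus stood close together in their medians. A level of 80% or more was reached by 238 clusters (61.5%) in the precursors, by 224 (57.9%) in iPSC-DA and by 174 (45.0%) in mdDA neurons, against 7.12%, 5.997% and 5.32% of all clusters. Levels of 40% to 60% in iPSC-DA neurons were found for 43 clusters (11.1%), close to the 11.7% of all clusters.

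Another 4043 clusters under 20% in iPSCs gained at least 20 points in iPSC-DA neurons but not in mdDA neurons, and they looked different. Their median level was 39.3% in iPSC-DA neurons (quartiles 33.5% and 45.4%), 16.1% in the precursors and 5.11% in mdDA neurons. In iPSCs it was 4.32%, against 11.4% for the selected clusters, so the starting levels differed as well. Only 28 of the 4043 (0.693%) reached 80% in iPSC-DA neurons, against 224 of 387 (57.9%). The precursors had the gain in 1095 of the 4043 (27.1%), against 95.3% of the selected clusters. The 4043 were chosen on their levels in iPSCs, iPSC-DA and mdDA neurons, so that those levels, low in mdDA neurons by the choice, are a description. These shares are set side by side without a test, since clusters of 1 library are not replicates.

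**Figure D1:**
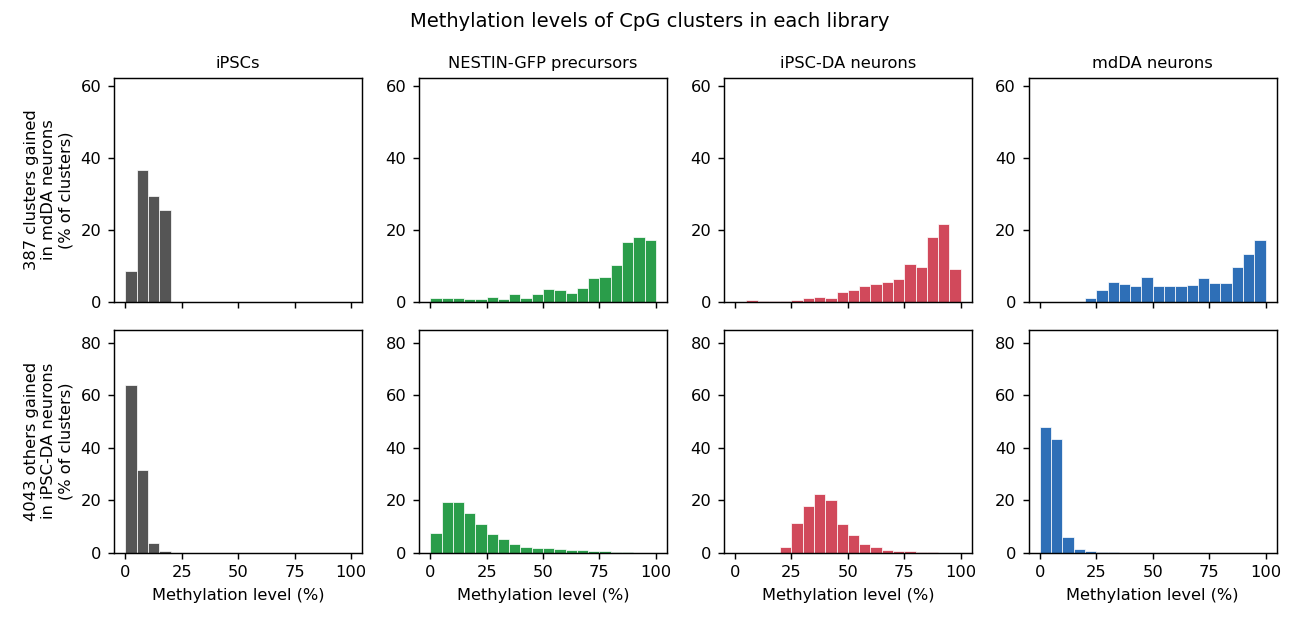
Histograms of the methylation level (x axis, percent, bins of 5 points) of the 387 clusters gained in mdDA neurons (top) and of the 4043 other low clusters gained in iPSC-DA neurons (bottom) in each of the 4 libraries, as percent of clusters (y axis, scaled per row). The top row leans towards full methylation in all 3 differentiated libraries, with medians of 85.4%, 84.2% and 75.1%, while the bottom row centres on 39.3% in iPSC-DA neurons and stays near 5.11% in mdDA neurons. The top row was chosen on iPSC and mdDA levels, and the bottom row on these and on iPSC-DA levels.

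Single positions told the same difference. Among the 6778 positions of the selected clusters, 57.2% were at 80% or more in the precursors, 57.1% in iPSC-DA and 45.8% in mdDA neurons, while none was in iPSCs. Positions between 20% and 80% in iPSC-DA neurons made up 40.7% in the selected clusters and 86.2% in the 4043 others.

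Levels of iPSC-DA neurons were within 20 points of mdDA neurons in 77.3% of the selected clusters, close to the 72.1% of all clusters. They were at least 20 points higher in 84 clusters (21.7%), against 27.7% of all clusters, and at least 20 points lower in 4 (1.03%), against 0.187%. The precursors were within 20 points of mdDA neurons in 285 clusters (73.6%), a smaller share than the 87.6% of all clusters. Across the 387 clusters the levels of precursors and iPSC-DA neurons had a Pearson r of 0.79 and a Spearman rho of 0.75, those of iPSC-DA and mdDA neurons 0.74 and 0.77, and those of precursors and mdDA neurons 0.69 and 0.74. The points share 4 libraries and the base composition of each cluster, and the lower bound on the mdDA level was set by the choice.

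By their level in mdDA neurons, the selected clusters fell into 4 bins. In the 174 clusters at 80% or more in mdDA neurons, with a median of 93.4%, the medians were 93.1% in the precursors and 91.0% in iPSC-DA neurons, and 2 clusters were at least 20 points below mdDA neurons in the latter. In the 56 clusters between 20% and 40% in mdDA neurons, with a median of 33.5%, the medians were 53.7% in the precursors and 56.1% in iPSC-DA neurons, and 34 stood at least 20 points above mdDA neurons in the latter. Between 40% and 60%, with 77 clusters and a median of 49.5%, the medians were 70.8% and 69.4%, and 35 stood that far above. Between 60% and 80%, with 80 clusters and a median of 71.5%, they were 81.7% and 82.2%, and 15 did. The bins are cut on the mdDA level, which the choice used, and a level cannot pass 100%, which leaves no room for an excess of 20 points in the top bin and little in the next, so these values are a description.

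**Figure D2:**
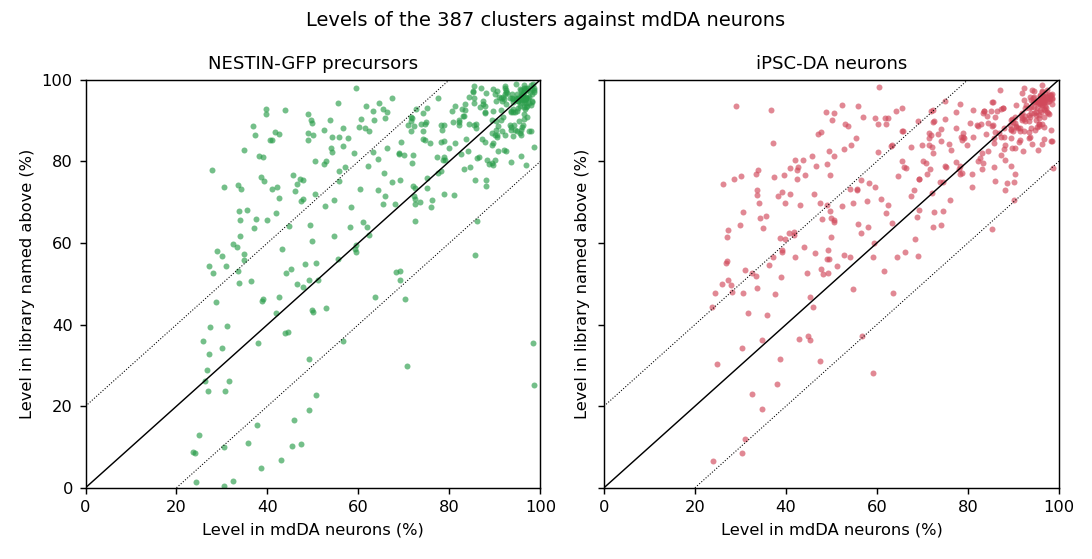
Level of each of the 387 clusters in mdDA neurons (x axis, percent) against its level in NESTIN-GFP precursors (left, y axis, percent) and in iPSC-DA neurons (right), 1 point per cluster, with the line of equality and dotted lines 20 points above and below it. In iPSC-DA neurons 77.3% of the points lie between the dotted lines (72.1% of all clusters would), 84 on or above the upper line (21.7%, against 27.7% of all clusters) and 4 on or below the lower one (1.03%, against 0.187%).

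Of the clusters with at least 20 positions and a mean of at least 10 calls per position in every library, 86 in number, that with the greatest mdDA gain lay at chr6:48547392-48547644 (21 positions). It was at 5.86% in iPSCs, 94.3% in the precursors, 94.5% in iPSC-DA and 97.5% in mdDA neurons. The other 9 of the 10 greatest gains were also 79.0% or more in the precursors and 89.8% or more in iPSC-DA neurons. They included chr5:93370789-93371592, a long cluster of 78 positions, at 8.82%, 87.7%, 91.8% and 94.5% in the same order of libraries.

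The greatest excess of iPSC-DA over mdDA neurons in that group was at chr7:88020628-88021185 (43 positions), with 6.09% in iPSCs, 56.8% in the precursors, 76.5% in iPSC-DA and 30.1% in mdDA neurons. The cluster at Papolb, a poly(A) polymerase gene of the testis, was next with 6.48%, 79.5%, 93.9% and 52.3%. A cluster 10287 bp from one placed at Dact3, at chr7:17471211-17471481, had 6.16%, 46.8%, 78.6% and 42.6%. In each of these the precursors were above mdDA neurons and iPSC-DA neurons were highest.

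The 4 clusters that fell short in iPSC-DA neurons by 20 points or more against mdDA neurons, named after their values were seen, did so by 20.3 to 31.0 points. That at chr4:146316397-146316539 was at 8.22% in iPSCs, 58.6% in the precursors, 28.2% in iPSC-DA and 59.2% in mdDA neurons. That at chr12:109153851-109154000 was at 5.65%, 25.2%, 78.4% and 98.7%. The others were chr4:149434713-149434864 and chr7:69564699-69564732.

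The precursors and iPSC-DA neurons are the pair of libraries that the choice left aside, and their levels were compared in every cluster by Fisher's exact test (two-sided) on the calls, adjusted by Benjamini-Hochberg over all 14973 clusters. A difference was called at an adjusted p-value under 0.05 and at least 20 points. It compares 2 libraries and not 2 conditions, and calls of 1 read or PCR copy are linked, which makes the p-values too small. Of the 387 clusters, 33 (8.53%) were higher in iPSC-DA neurons, against 15.9% of all clusters. In the other direction, 20 (5.17%) were higher in the precursors, against 4.68% of all clusters. The remaining 334 were not called, and 257 of the 387 differed by less than 10 points. The median difference was -0.45 points, iPSC-DA neurons minus precursors. Among the 4043 other low clusters with a gain in iPSC-DA neurons, 2327 (57.6%) were higher in iPSC-DA neurons by the same test, though that set was chosen on the iPSC-DA level.

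The 33 clusters higher in iPSC-DA neurons had medians of 4.45% in iPSCs, 26.1% in the precursors, 59.0% in iPSC-DA and 42.6% in mdDA neurons. Their differences ran from 20.5 to 53.2 points. The 20 clusters higher in the precursors had medians of 9.24%, 84.6%, 59.4% and 56.1%, and differences of 20.03 to 38.1 points in the other direction. The greatest of these was chr2:84901256-84901328, at 5.56% in iPSCs, 57.4% in the precursors, 19.3% in iPSC-DA and 34.8% in mdDA neurons (adjusted p = 1.00e-43, Fisher's exact test). In this last cluster the iPSC-DA level was below that of mdDA neurons as well. Among the 86 larger and deeper clusters, the greatest lead of the precursors was at chr4:146316397-146316539, described above, and the next was at chr17:29989328-29989643, with 8.56% in iPSCs, 91.7% in the precursors, 79.2% in iPSC-DA and 48.9% in mdDA neurons, under the 20 points needed for a call.

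The 18 clusters without the gain in the precursors lay in a few places. Their medians were 3.84% in iPSCs, 10.5% in the precursors, 39.4% in iPSC-DA and 36.7% in mdDA neurons, against 11.8%, 86.4%, 85.1% and 77.4% for the other 369. In 17 of the 18 the mdDA level was under 60%, and 15 of the 18 were among the 33 called higher in iPSC-DA neurons. The fewest calls of the precursors in any of the 18 were 160. These clusters were grouped after their values were seen.

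Imprinted transcripts and their surroundings were among them. Hymai, a non-coding transcript of the imprinted Plagl1 region, was at 4.12% in iPSCs, 22.6% in the precursors, 65.2% in iPSC-DA and 50.7% in mdDA neurons (chr10:12810599-12810995, 31 positions). Zrsr1, an imprinted gene related to splicing factor genes, was at 5.40%, 19.08%, 52.7% and 49.2% (chr11:22871902-22872128, 12 positions). Both were higher in iPSC-DA neurons than in the precursors, by 42.6 points (adjusted p = 6.38e-157, Fisher's exact test) and 33.6 points (adjusted p = 1.71e-17, Fisher's exact test). In mdDA neurons both stood near the middle of the scale. Both were placed with 7 positions, fewer than the 8 first required, under the minimum lowered after the data were seen.

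A cluster 10934 bp from one placed at Grb10, an imprinted gene that restrains growth, was at 3.46%, 6.89%, 36.5% and 42.9% in the same order (chr11:11926188-11926472, 56 positions). A pair of clusters at chr2:174153351-174154084, the nearer 1109 bp from one placed at Gnas, the imprinted gene of a G protein subunit, had 3.84% and 5.35% in iPSCs, 10.3% and 16.7% in the precursors, 36.2% and 44.2% in iPSC-DA, and 45.4% and 45.9% in mdDA neurons. Distance says only which placed cluster is nearest, and these clusters were themselves placed at no promoter. The clusters placed at Grb10 and at Gnas were not selected. In the same order of libraries they were at 3.21%, 16.6%, 41.5% and 4.02% (Grb10) and at 3.06%, 0%, 4.42% and 4.84% (Gnas).

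The rest of the 18 lay in 4 clusters at chr7:69522117-69609383, a pair at chr7:150645191-150645813, 5 clusters of chromosome 12 between 19887976 and 23255725, 1 cluster 1756 bp from one placed at Fzd5, a WNT receptor gene, and chr12:109153851-109154000, described above. All of these were placed at no promoter, and whether they lie in imprinted regions was not examined. The 80 positions of chr7:69608697-69609383 were at 3.49% in iPSCs, 8.71% in the precursors, 44.3% in iPSC-DA and 23.7% in mdDA neurons. Those of chr12:23255676-23255725 were at 3.48%, 1.504%, 47.9% and 24.3%. In both the iPSC-DA level was over that of mdDA neurons while the precursors stayed low.

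Of the 6 genes of a germline list at a selected cluster, 5 were above 70% in the precursors and Dazl was at 49.2%. Boll, Henmt1 and Hsf5, germline genes outside that list, were at 43.0%, 71.6% and 75.5% in the precursors. Of the 66 genes of the list, 9 were placed at a cluster and 6 of these at a selected one, against 16 of all 3984 placed genes (0.402%). Mael, of the piRNA pathway that silences transposons in germ cells, was at 7.61% in iPSCs, 87.8% in the precursors, 85.9% in iPSC-DA and 93.6% in mdDA neurons. Hormad1, which codes for a protein of meiotic chromosome axes and was placed only under the rule loosened after the data were seen, was at 12.2%, 89.9%, 89.3% and 90.3%. Ddx4, the germ cell RNA helicase also called Vasa, was at 8.28%, 73.4%, 79.0% and 75.1%. At these 3 genes the differentiated libraries lay within 8 points of each other.

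Dmrtb1, a transcription factor gene of spermatogonia, was at 15.0% in iPSCs, 88.5% in the precursors, 85.8% in iPSC-DA and 93.5% in mdDA neurons. Hormad2, another gene for a meiotic axis protein, was at 7.73%, 88.2%, 75.4% and 56.6%. Dazl, an RNA-binding protein gene needed for germ cells, was at 8.004%, 49.2%, 65.8% and 47.9%. None of the 6 was called between the precursors and iPSC-DA neurons, and the greatest absolute difference was 16.7 points at Dazl (adjusted p = 3.56e-49, Fisher's exact test). The list's other placed genes were not at a selected cluster. Cpeb1, a translation regulator gene of oocytes, was at 5.05%, 21.7%, 41.9% and 6.45%, and Tdrd5, of the piRNA pathway, at 4.83%, 24.8%, 54.1% and 7.37%. Tdrd7, a gene of germ cell RNA granules, was at 3.32%, 1.39%, 4.47% and 4.20%. These 3 gained under 20 points in mdDA neurons, so the rule did not select them.

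Zrsr1 was the only gene at a selected cluster among 8 placed genes of the imprinted list, and Hymai was not on that list. In mdDA neurons the list's other placed genes ran from 4.02% (Grb10) to 6.67% (Commd1), so the rule did not select them. Of the placed genes of the Hox list (4), the dopaminergic list (8), the neural progenitor and neuronal list (5), the pluripotency list (4) and the list of mesoderm, endoderm and fibroblast genes (6), none was at a selected cluster, and no protocadherin was placed at any cluster. With 16 placed clusters in all, an absence says little about the genes of these lists.

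The other placed genes were not on a list and are named after their values were seen. Boll, a relative of Dazl, was at 8.19% in iPSCs, 43.0% in the precursors, 61.4% in iPSC-DA and 49.97% in mdDA neurons. Henmt1, the methyltransferase gene for piRNA ends, was at 13.4%, 71.6%, 78.5% and 65.9%. Hsf5, a heat shock factor gene of spermatocytes, was at 13.3%, 75.5%, 84.5% and 85.7%. Each of these genes has a known role in the germline.

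Rbmxl2, the testis gene of an RNA-binding protein, was at 4.49%, 64.5%, 56.2% and 49.4% in the same order. Alpk3, a kinase-like gene of the heart and muscle, was at 13.1%, 82.2%, 83.7% and 63.1%. Amn, which codes for the amnionless part of a receptor in gut and kidney, was at 10.8%, 67.9%, 71.8% and 33.7%. The predicted gene Gm46055 was at 12.5%, 89.5%, 76.7% and 49.7%. In these 4 the lowest of the 3 differentiated libraries was that of mdDA neurons.

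**Figure D3:**
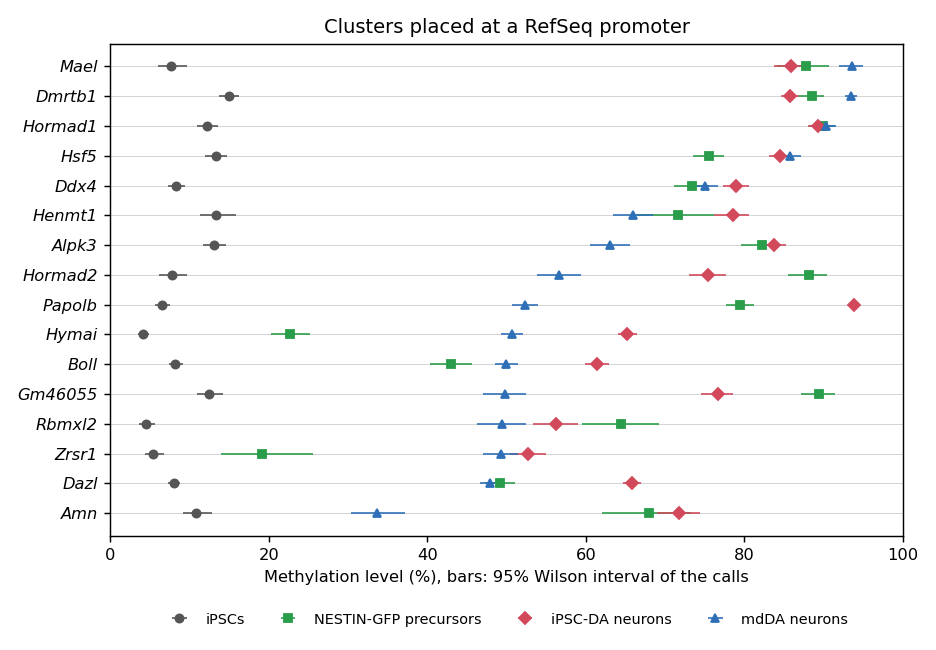
Methylation level (x axis, percent) of the 16 clusters placed at a RefSeq promoter, 1 row per gene in the order of the mdDA level, with 1 symbol per library and bars for the 95% Wilson interval of the calls, which covers counting error only. All iPSC values lie between 4.12% and 15.0%, and the precursors are under 25% at Hymai and Zrsr1 and between 43.0% and 89.9% at the other 14 genes.

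A middle level of a cluster hid different patterns along it. Dazl was placed with 6 positions, the minimum as lowered after the data were seen. At Dazl (chr17:50432161-50432946, 68 positions) the end with the matched start site, 136 to 393 bp from the centre, had mean levels over 19 positions of 12.5% in iPSCs, 93.7% in the precursors, 93.5% in iPSC-DA and 92.8% in mdDA neurons. The other end, -392 to -135 bp from the centre and on the side towards which Dazl is transcribed, had means over 36 positions of 3.81%, 22.4%, 42.2% and 3.95%. There 33 of 36 positions were under 20% in mdDA neurons. So 1 end had the level of mdDA neurons in all 3 differentiated libraries, and the other stayed at the iPSC level in mdDA neurons only.

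Hymai was near its middle level throughout in mdDA neurons, where its 31 positions ran from 34.8% to 63.0% with a median of 48.99% and an SD over positions of 7.79 points. In iPSC-DA neurons they ran from 32.5% to 77.8% with a median of 66.2%. In the precursors the 14 positions from 71 to 198 bp had a mean of 15.6% and the 10 positions from -198 to -72 bp a mean of 48.3%. In the cluster near Grb10, the 36 positions from 57 to 142 bp had means of 22.4% in iPSC-DA and 36.2% in mdDA neurons, while the 12 positions from -142 to -51 bp had 53.4% and 42.6%. Within 1 cluster the order of the neuron libraries thus changed from end to end.

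Ddx4 showed no such steps. Its 41 positions had medians of 3.39% in iPSCs, 76.0% in the precursors, 79.4% in iPSC-DA and 76.8% in mdDA neurons, with an SD over positions of 13.5 to 16.1 points in the differentiated libraries. Among the 77 clusters at 40% to 60% in mdDA neurons, the SD over positions in that library had a median of 15.6 points, with quartiles of 12.7 and 19.6. In 3 of the 77, Dazl among them, it was 30 points or more. The median SD over positions in the selected clusters was 12.5 points in the precursors, 10.3 in iPSC-DA and 11.8 in mdDA neurons, and it includes the counting error of each position.

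**Figure D4:**
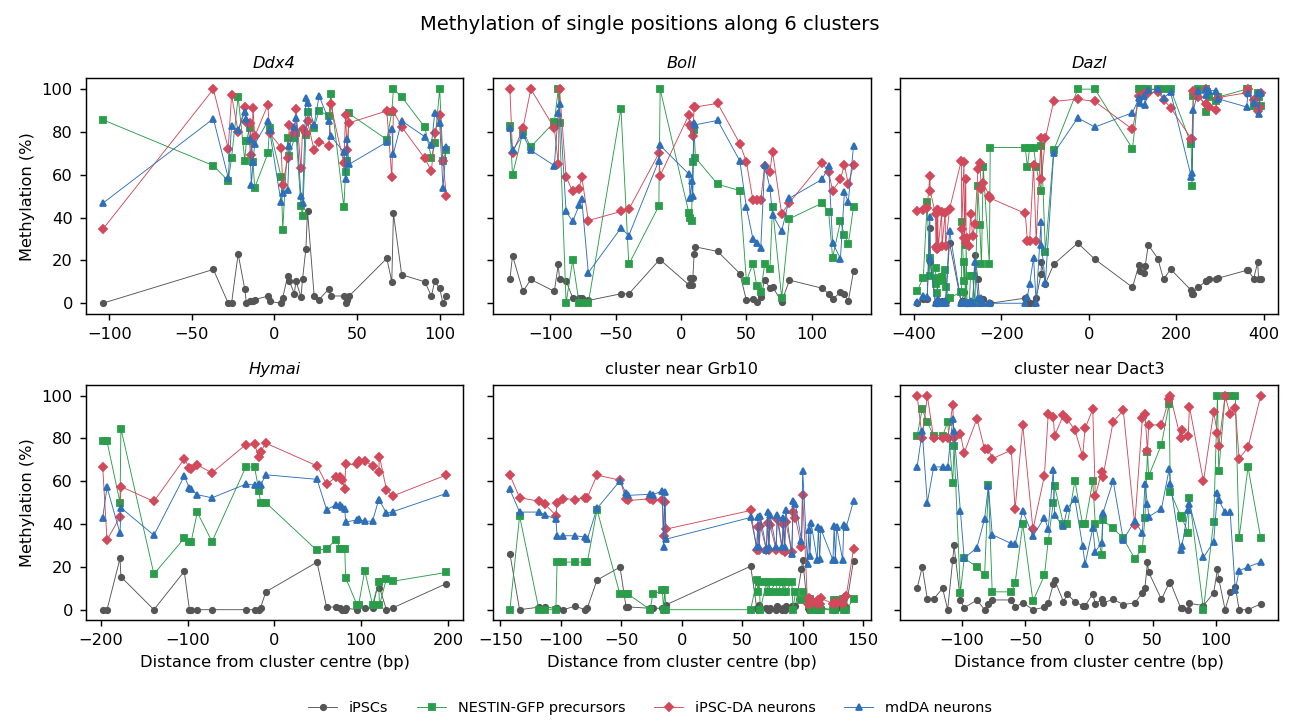
Methylation (y axis, percent) of single covered positions along 6 of the selected clusters, by distance from the cluster centre (x axis, bp, in the direction of the chromosome), 1 colour and symbol per library with lines joining neighbours. Dazl has a step, with mdDA means of 3.95% on the left and 92.8% on the right, while Hymai stays between 34.8% and 63.0% in mdDA neurons.

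The selected clusters were smaller and more isolated than the 13759 other clusters low in iPSCs. Their median was 14 positions over 181 bp, or 11.9 bp per position, against 20 positions over 196 bp, or 9.02 bp per position. The median distance to the nearest cluster was 10008 bp, against 1119 bp, and 29.2% had another cluster within 2000 bp, against 51.8%. The nearest cluster was itself a selected one for 85 of 387 (22.0%), against 1.64% of the others. They were placed at a promoter in 4.13%, against 27.4% of the others and 18.2% of the 4043.

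Of the 113 selected clusters with another cluster within 2000 bp, the nearest was selected as well for 68, and for 45 it was not. Over all clusters, 7333 had another within 2000 bp, and for 108 of them the nearest was a selected one. These 45 neighbours had medians of 6.83% in iPSCs, 48.9% in the precursors, 46.2% in iPSC-DA and 13.9% in mdDA neurons, and the 45 selected clusters beside them had 9.79%, 70.8%, 76.5% and 61.0%. Of the neighbours, 25 were under 20% in mdDA neurons and 31 had a gain of at least 20 points in iPSC-DA neurons. The neighbours had missed the choice on their iPSC level (15 at 20% or more) or on their mdDA gain, so their levels in those libraries are a description.

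Calls per position in the selected clusters had medians of 85.5 in iPSCs, 35.0 in the precursors, 93.3 in iPSC-DA and 80.9 in mdDA neurons. In the other low clusters they were 99.1, 18.3, 112 and 100.8. Only the library of precursors covered the selected clusters more deeply than the others, and the part of this in their levels was not tested. In 1 cluster the calls per position reached 2740 in iPSC-DA neurons. Without the most deeply covered positions the medians of 385 clusters were 85.4% in the precursors and 84.3% in iPSC-DA neurons.

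Methylation did not end at the cluster. In the bin of 1 to 250 bp from a selected cluster, 381 covered positions lay outside any cluster. Their mean levels were 18.4% in iPSCs, 84.2% in the precursors, 79.5% in iPSC-DA and 77.1% in mdDA neurons. A covered position less than 100 bp from a cluster edge would have joined the cluster, so this bin holds none that close. In the outermost bin, which ends at 2000 bp, the means were 35.0%, 75.9%, 71.0% and 67.0%. Around the 4043 others, positions within 250 bp had 7.69%, 37.1%, 42.0% and 11.1%. Over all shared positions outside clusters the means were 45.1%, 73.3%, 62.4% and 59.1%, so that the surroundings of the selected clusters were below that mean in iPSCs and above it in the differentiated libraries.

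**Figure D5:**
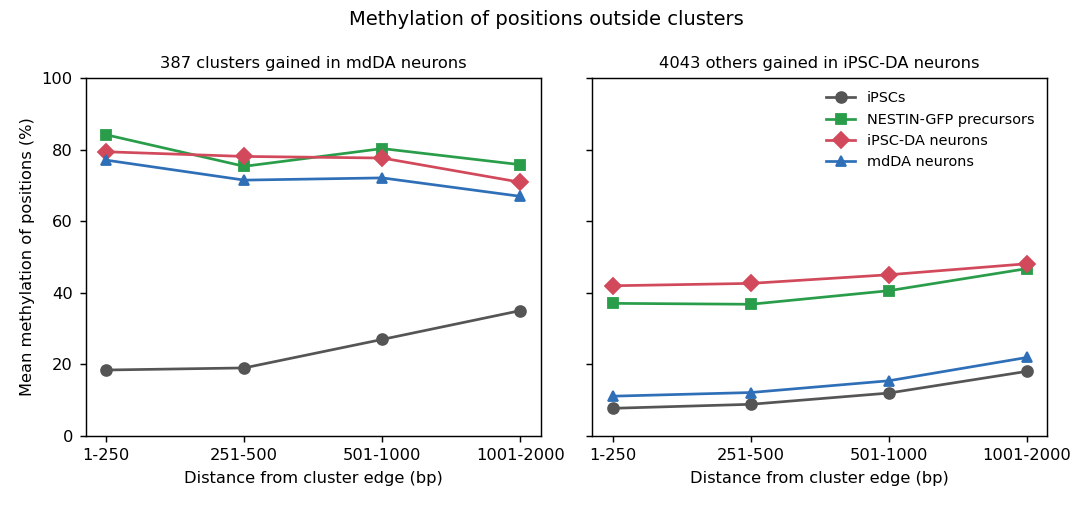
Mean methylation (y axis, percent) of covered positions outside clusters, by distance from the cluster edge (x axis, bp, 4 bins), around the 387 selected clusters (left) and the 4043 other low clusters gained in iPSC-DA neurons (right), 1 line per library. On the left the 3 differentiated libraries start at 77.1% to 84.2% in the bin nearest the cluster. On the right mdDA neurons start at 11.1%, close to the 7.69% of iPSCs. Covered positions less than 100 bp from a cluster edge belong to the cluster, so the nearest bin holds none of them.

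Every autosome held at least 1 of the selected clusters, with 58 of 1076 clusters on chromosome 7 (5.39%) and 1 of 437 on chromosome 16 (0.229%). The share over all autosomes was 2.58%. On the 17 chromosomes with at least 8 of them, median levels ran from 69.4% to 90.8% in iPSC-DA neurons, from 53.2% to 92.2% in the precursors and from 43.1% to 90.0% in mdDA neurons. Among the differentiated libraries the narrowest range was that of iPSC-DA neurons.

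At the limits of the choice, the cluster just inside the gain of 20 points was chr7:69608697-69609383, with a gain of 20.2 points, and the one just outside was chr9:44313987-44314296, with 19.8 points. Next to the limit of 20% in iPSCs, chr5:143549189-143549303 was inside at 19.8% and chr17:8453719-8453895 outside at 20.1%, with 94.1% and 78.7% in iPSC-DA neurons. A further 507 clusters gained at least 20 points in mdDA neurons but were at 20% or more in iPSCs.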

How the data were processed

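RRBS data of 4 libraries were used, 1 per group. The authors checked the reads with FastQC, trimmed them with Trim Galore (version 0.3.5) and called methylation with Bismark (version 0.10.1), per the labels. For each cytosine position they deposited a percent of methylation beside the counts of methylated and of unmethylated calls, with strands separate and no normalization. The genome build is not given in the sources used here. The libraries held 31419979 (precursors) to 79648099 (iPSC-DA neurons) calls, with medians of 18 to 86 calls at the 619480 shared positions.

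Autosomal clusters were built in Python 3.11.15 (numpy 2.4.6, pandas 2.3.3, scipy 1.17.1, numba 0.67.0) and held 367731 positions. The code was tested on simulated data. The clusters, gene lists and tests were chosen with earlier results of these data known. Clusters to name were the 10 with the largest mdDA minus iPSC difference, the 5 each with the smallest iPSC-DA minus iPSC, the largest iPSC-DA minus mdDA and the largest precursor minus iPSC-DA difference among those of at least 20 positions, and those at genes of the lists. Placement by at least 8 positions at 1 offset alone also matched 2640 clusters to promoters of a wrong chromosome, against 4474 of their own. After seeing this, a match was kept only where another matched cluster within 2000000 bp had the same offset to within 10 bp, and 6 positions were then enough. This left 0 matches to a wrong chromosome. No promoter sequences of chromosome 18 were used. Alternatives changed the minimum of calls, the strands, cluster size, gaps, weighting, size of gain, depth and very deep positions.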

Additional observations from a re-analysis of the deposited data

Results flagged for a closer look

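Differences between the precursors and iPSC-DA neurons in their gain over iPSCs were each compared with Fisher's exact test on the calls. In 33 clusters iPSC-DA neurons had gained more (8.53%, against 15.9% of all clusters). In 20 the precursors had (5.17%, close to the 4.68% of all clusters). Both comparisons are between single libraries, made from different reporter lines. Of the 33, 15 had no gain of 20 points in the precursors and 18 did.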

How the results depend on the processing

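The share of the selected clusters with the gain in iPSC-DA neurons ran from 97.7% to 99.4% over 10 alternatives, and medians ran from 79.1% to 86.5% in iPSC-DA neurons and from 79.5% to 87.4% in the precursors. With clusters of at least 20 positions, 87 clusters met the rule, 92.0% of them had the gain in the precursors, 12 were higher in iPSC-DA neurons and 1 was higher in the precursors. With a gain and difference of at least 10 points, the counts were 103 higher in iPSC-DA neurons and 85 higher in the precursors, and with 30 points these counts were 9 and 3. Clusters higher in the precursors numbered 12 with strands merged and 11 with gaps under 50 bp, where 309 and 302 clusters met the rule. For these changes the sets of clusters differ by construction. The share of all clusters called higher in either library was not computed under the alternatives, so these counts have no such share to be read against. The other 40 values stayed within 1.5 times the count, or within the interval of the share, as reported. This includes leaving out chromosome 10, an alternative added after seeing the data, which left 359 clusters with medians of 83.9% in iPSC-DA neurons and 85.2% in the precursors.

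With 1 library per group, replicate error is unknown. No paired analysis was possible because each group has 1 library. A cluster of the precursors rests on as few as 104 calls. Placement covered 16 clusters, or 12 where at least 8 positions and all matches at 1 offset were required. Both counts also required an offset shared with another matched cluster, a condition added after seeing the data. Hormad1, Hymai, Zrsr1 and Dazl were placed only under the looser rule, which was likewise added after seeing the data.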

Other observations

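The X chromosome was left out of the choice. Of its 232 clusters built in the same way, 80 (34.5%) were under 20% in iPSCs and at least 20 points higher in mdDA neurons, against 387 of 14973 on autosomes. These 80 had medians of 4.46% in iPSCs, 15.9% in the precursors, 28.1% in mdDA neurons and 27.5% in iPSC-DA neurons, against 11.4%, 85.4%, 75.1% and 84.2% for the 387 autosomal clusters in the same order. The gain of at least 20 points was present in 25 of them in the precursors and in 43 in iPSC-DA neurons. Its share over all 232 clusters was not computed, so these counts are not set against the rest of the chromosome. Over all 232 clusters of the X chromosome, which include the 80, the medians were 4.03%, 12.4%, 25.01% and 22.9% in the order iPSCs, precursors, iPSC-DA and mdDA neurons. The levels of iPSCs and mdDA neurons chose the 80 and are a description, and the sex of the animals and lines was not used here.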
